A study of Homo sapiens with 3 samples.

Results

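The empty-vector array is 1 of the 3 arrays of this series, and it was chosen by its label: it holds the RNA of colorectal cancer cells that carry an empty vector. The sample labels name the cell line SW620, while the series text names SW480. Both are established lines derived from the same patient's colorectal cancer, SW480 from the primary tumour and SW620 from a lymph node metastasis, and which of them was hybridised cannot be told apart here. The other 2 arrays hold cells of the same line with full length LATS2, a Hippo pathway kinase, or with its fragment LATS2N(1-625), and they were not used. The empty-vector cells therefore carry the vector of that experiment but no added LATS2, were grown in DMEM with fetal bovine serum, and their RNA was hybridised once. With 1 array there is no spread between cultures, no error on any signal and no test, so the values below describe 1 preparation of RNA.

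Colorectal tumour cells descend from the crypt, where Wnt signals keep stem cells dividing and where cells that leave the niche turn into absorptive colonocytes, mucus-secreting goblet cells and hormone-secreting endocrine cells. Loss of the APC tumour suppressor, which both SW lines carry in truncated form, leaves beta-catenin free to act with TCF/LEF factors on its target genes. The Hippo pathway, whose kinase LATS2 the study added to these cells, restrains the coactivators YAP1 and WWTR1 (TAZ), which act through TEAD factors.

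The array reported 54613 probe sets after 62 control probe sets were left out. A probe set is a group of short probes for 1 transcript, and its MAS5 signal summarises their brightness on a linear scale. The signals ran from 0.0866 to 46960, with a median of 51.1, a 90th percentile of 1791 and a 99th percentile of 14934. The brightest 10% of the probe sets held 79.3% of the summed signal, and the probe sets at or below the median held 1.09%. The 41091 probe sets with exactly 1 gene symbol covered 19775 genes, each represented by its brightest probe set. A gene is called modest when it lies above the array median and at or below the 90th percentile, and high when it lies above the 90th percentile, which is 35.1 times the median.

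By this rule 12549 of the 19775 genes (63.5%) lay above the array median, 3653 (18.5%) lay in the top 10% of probe sets and 307 (1.55%) in the top 1%. These percentages are the background against which each gene group below is set. They differed between kinds of gene: 70.4% of 16521 protein-coding genes but 26.1% of 2658 long noncoding RNA genes lay above the median. In the top 10% lay 22.0% of the protein-coding genes. The families below hold only protein-coding genes, and the lists hold mainly such genes. A share between 63.5% and 70.4% is thus above that of all genes but below that of protein-coding genes. The percentages also differed with the number of probe sets, because the brightest one speaks for the gene. Of the 9252 genes with 1 probe set 47.5% lay above the median, and of the 1335 genes with 5 or more 89.7%.

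A probe set's signal depends on how well its probes bind as well as on the amount of transcript, so the order of genes is an order of signals and not of transcript numbers. The size of that dependence shows in the 10523 genes with 2 or more probe sets, whose probe sets differed by a median SD of 1.71 on the log2 scale. The highest was a median of 8.48 times the lowest. For this reason genes are placed in broad bands, and neighbours in the order are not told apart.

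Classes of probe sets expected to find little or no target gave the level of background. The 27 control probe sets for Bacillus subtilis genes read 0.392 to 53.0, with a median of 10.0, and 1 of them lay above the array median. Among 171 genes of 6 families known mainly from other tissues (olfactory and taste receptors, keratin-associated proteins, beta-defensins, crystallins and cornified envelope proteins), 26 (15.2%) lay above the median and 0 in the top 10%. Whether single members are transcribed in colon cells was not tested. The brightest of them was KRTAP3-1, a hair protein gene, at 341. A signal somewhat above the median was therefore also read by genes of these families, and a signal in the top 10% was not. This holds for these families only, since CLDN11, known from myelin and testis, read 14029. The families were also chosen with earlier results of these data known, and the restriction to protein-coding members after the values were seen. The hybridisation controls bioB, bioC, bioD and cre, which the standard protocol adds in rising amounts, had median signals of 222.6, 1929, 8148 and 25410 in that order.

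**Figure D1:**
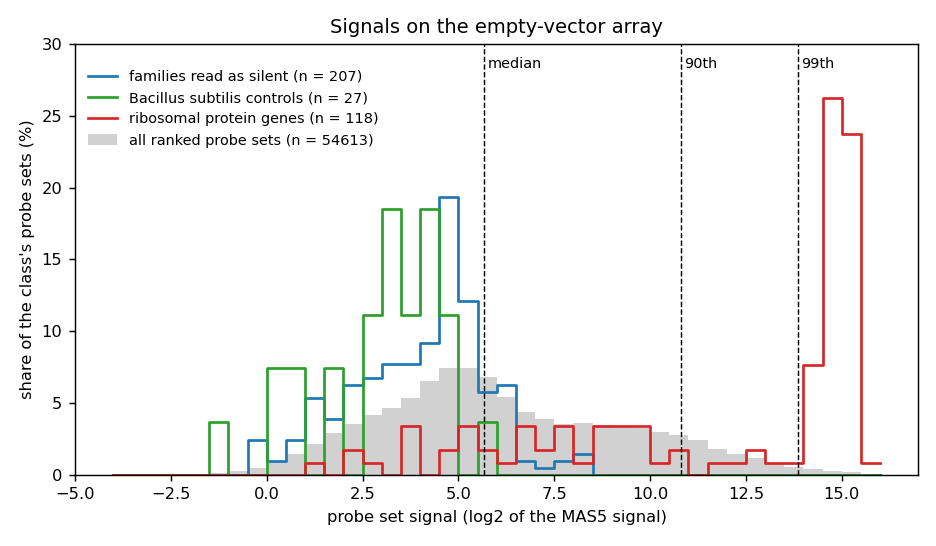
Distribution of log2 probe set signals on the empty-vector array, as the share of each class in bins of 0.5 log2 units: all 54613 ranked probe sets (grey bars), 207 probe sets of families known mainly from other tissues, 27 Bacillus subtilis controls and the probe sets of ribosomal protein genes (lines). Dashed lines mark the median (51.1), the 90th percentile (1791) and the 99th percentile (14934). The controls and the other-tissue families sit mostly left of the median, and many ribosomal protein probe sets sit right of the 99th percentile.

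The brightest genes were those of protein synthesis. Of the 30 genes with the highest signals, 18 encode proteins of the cytosolic ribosome, and among the 100 brightest there were 45. RPS19, a protein of the small ribosomal subunit, had the highest signal of all at 46960.4, followed by RPL37A of the large subunit at 45954 and RPS6, the subunit protein phosphorylated downstream of mTOR, at 44649. Over the family, 54 of 57 measured genes lay above the median and 51 in the top 10%, with a median signal of 30834. The translation factor EEF1A1, which brings aminoacyl-tRNA to the ribosome, read 37325.

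Many genes of ribosomal proteins and translation factors carry a tract of pyrimidines at their start site, which makes their mRNA a target of growth-dependent translational control. The RefSeq promoters (assembly GRCh38.p14) of the 4 brightest ribosomal protein genes with an entry, and of TMSB10 and S100A4, are shown from 45 bases before the annotated start to 20 bases from the start onward. They show what surrounds the start of some of the brightest genes on the array. Capitals mark runs of at least 7 bases of C or T that reach within 10 bases of the start, and the motif TATAAA.
RPS19 (chr19:41860210-41860274, + strand): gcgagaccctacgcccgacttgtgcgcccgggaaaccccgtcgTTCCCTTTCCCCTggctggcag
RPL37A (chr2:216498799-216498863, + strand): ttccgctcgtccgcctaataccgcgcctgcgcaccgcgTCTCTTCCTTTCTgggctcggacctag
RPS6 (chr9:19380217-19380281, - strand): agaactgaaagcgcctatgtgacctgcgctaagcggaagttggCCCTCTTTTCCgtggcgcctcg
RPS16 (chr19:39435930-39435994, - strand): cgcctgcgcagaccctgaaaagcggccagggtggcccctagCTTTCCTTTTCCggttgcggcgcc
TMSB10 (chr2:84905611-84905675, + strand): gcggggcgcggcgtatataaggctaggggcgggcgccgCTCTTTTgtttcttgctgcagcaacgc
S100A4 (chr1:153545787-153545851, - strand): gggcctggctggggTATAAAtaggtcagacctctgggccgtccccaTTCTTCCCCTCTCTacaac

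Each of the 4 ribosomal protein promoters held such a run across or next to its start. A run of at least 7 C or T on the transcribed strand within 10 bases of the start was found in 37 of the 49 ribosomal protein genes with a promoter (75.5%) and in 14.4% of all 27195 promoters of the table. On the other strand, read as a run of A or G, it was found in 2.04% and 10.8% of them. By signal band, the run was present in 14.3% of the genes at or below the median, 14.1% of modest genes, 13.6% of the top 10% below the top 1%, and 34.5% of the top 1%. Without the ribosomal protein genes the last share was 25.7%. The motif was chosen after the values were seen, and a match describes letters near an annotated start, not a working site.

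Outside the families of ribosome, translation, respiration, proteasome, splicing, chaperones and tubulins, the brightest genes had mixed roles. The 30 brightest of these reached down to rank 75 of all genes. KRT18, a keratin of simple epithelia, led them at 43054, and its filament partner KRT8 read 30042. TMSB10, an actin monomer binder, read 42821, and beta-actin (ACTB) read 40612. ODC1, the first enzyme of polyamine synthesis and a MYC target, read 35813, and the nucleolar protein NPM1 read 34281. Of the glycolytic enzymes, ENO1, LDHB, GAPDH, LDHA and TPI1 were among the 30. SFN (14-3-3 sigma), the tetraspanin CD9 and the desmosome-associated protein PERP closed the group, at 28349, 28109 and 28064.

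Probe sets of these genes did not always agree, and genes with 1 probe set, such as KRT18, TMSB10, ODC1 and S100A4, allow no such check. HUWE1, a ubiquitin ligase, ranked 14 of all genes at 39288 through a probe set of the kind the maker marks as able to match other transcripts. Its 4 other probe sets read 27.0, 29.3, 70.8 and 3663. PPIA, PABPC1, ENO1, YBX1, CD9 and PERP also had at least 1 probe set at or below the median, while the 3 probe sets of ACTB read 37709, 37885 and 40612 and those of GAPDH 29617 to 32945.

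The epithelial programme was read strongly. Of 13 simple epithelial keratins and brush border cytoskeleton genes, 12 lay above the median and 7 in the top 10% (53.8%, against 18.5% of all genes). KRT18, KRT8 and KRT19 (24941) were in the top 1%. The brush border proteins ezrin (EZR) and villin (VIL1) read 5537 and 5013, and plastin 1 (PLS1), which bundles microvillar actin, read 3987. KRT23 read 4612. KRT20, the keratin of differentiated colonic surface cells, was modest at 109, and KRT7, which colon cells usually lack, read 219 on its brightest probe set and 2.66 on its dimmest. CDHR5, an intermicrovillar protocadherin, was the member at or below the median (6.16).

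Adhesion and junction genes followed the same pattern, with 27 of 29 above the median, 13 in the top 10% and a median of 1636. EPCAM, the epithelial adhesion molecule, read 16608, and alpha-catenin (CTNNA1) 15970.5. The desmosomal plakin DSP read 11653 and the desmosomal cadherin DSG2 5109.5. E-cadherin (CDH1) was high at 4421 on 1 probe set and 55.8 on the other. ESRP1, the splicing factor that makes epithelial isoforms, read 3286. GRHL2, an epithelial transcription factor, and the pore-forming claudin CLDN2 lay at or below the median at 40.7 and 43.0.

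Among all 44 keratins measured, 15 lay above the median and 6 in the top 10%, so most of the family was dark. The bright ones were not all of the simple type: KRT5, a basal keratin of stratified epithelia, read 8282 while its usual partner KRT14 read 10.8, and KRT10, a keratin of upper epidermis, read 3977. Of 20 claudins, 10 lay above the median, and the brightest was CLDN11, a claudin known from myelin and testis, at 14029 on 1 of 3 probe sets and 12.6 on the dimmest. CLDN7 (7079) and CLDN1 (3366) came next. Of 65 cadherins and protocadherins, 16 lay above the median, and CDH1 was the member in the top 10%.

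Genes of mature colon cells were mostly at or below the median. Of 38 genes of absorptive colonocytes, 13 lay above the median (34.2%, against 63.5% of all genes) and 0 in the top 10%, with a median of 28.0. The chloride-bicarbonate exchanger SLC26A3 read 8.80, the water channel AQP8 8.64, the carbonic anhydrase CA4 6.82 and the guanylin gene GUCA2A 7.46. The fatty acid binding proteins FABP1 and FABP2 read 28.3 and 1.38, and LGALS4, a galectin of colonic epithelium, 27.7. These values lie within the range of the bacterial controls. The brightest members were the sulfate transporter SLC26A2 at 1427 and MALL at 1362.

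Carcinoembryonic antigen family genes, which many colorectal tumours express strongly, gave weak signals. CEACAM5 read 33.4, CEACAM6 70.1 and CEACAM1 87.8. Of the 9 family members measured, 7 lay above the median but 0 in the top 10%, and the brightest was CEACAM21 at 334. All 9 read below KRTAP3-1, the brightest gene of the other-tissue families (341).

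Secretory lineages read low as well. Of 20 goblet genes, 8 lay above the median and 0 in the top 10%. MUC2, the gel-forming mucin of the colon, read 16.8, its companion FCGBP 25.6, and the lineage factor ATOH1 43.3, all at or below the median. TFF3 (384) and FOXA3 (690.5) were modest. Of 14 mucins and trefoil factors, 8 lay above the median (57.1%, against 63.5% of all genes) and 0 in the top 10%, and the membrane mucin MUC13 read 528. Of 21 enteroendocrine genes, 5 lay above the median, with chromogranin A (CHGA) at 24.0 and the transcription factor ISL1 at 513. Of 10 Paneth genes 4 did, and PRSS2, a trypsinogen, stood out at 1396 and 1389.7 on its 2 probe sets while DEFA6 read 5.68. Of 12 tuft genes 6 did, with the cytokine receptor subunit IL17RB in the top 10% at 1989 and the channel TRPM5 at 2.28.

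The list of colorectal transcription factors, which also holds factors of other regions, was read unevenly. Of 15 measured, 11 lay above the median (73.3%, against 63.5% of all and 70.4% of protein-coding genes). In the top 10% lay 4 (26.7%, against 18.5% and 22.0%), namely KLF5, MYB, PITX1 and SOX2. KLF5, a factor of proliferating crypt cells, read 4498, MYB 2579 and the hindlimb factor PITX1 2310.2. CDX2, the main intestinal homeobox factor, was modest at 177 and 47.0, and CDX1 lay below the median at 34.1. SOX2, a factor of stem cells and foregut rather than hindgut, was high at 3334 on its brightest of 4 probe sets and 34.0 on its dimmest. GATA4 and ISX, factors of small intestine, lay at or below the median at 35.4 and 36.9.

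**Figure D2:**
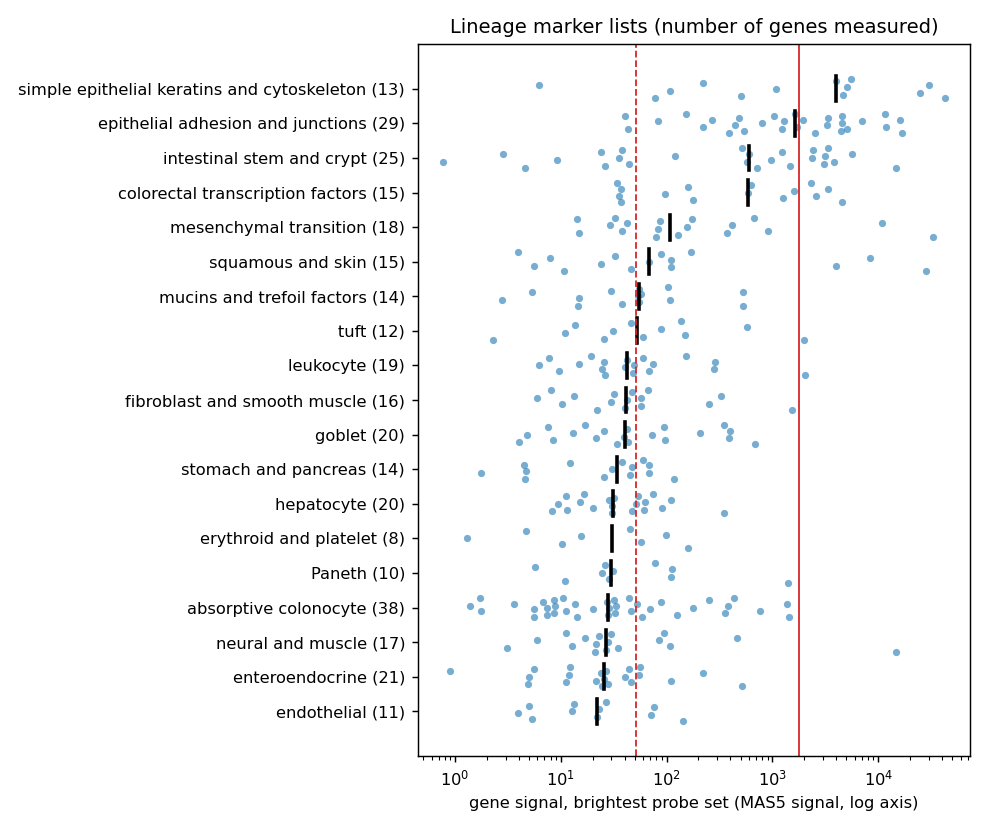
Signals of the genes of 19 lineage marker lists on the empty-vector array (brightest probe set, log axis), ordered by the list median (black bar), with the number of genes measured in brackets. The dashed red line is the array median (51.1) and the solid red line the 90th percentile (1791). The keratin and adhesion lists reach medians of 3987 and 1636, and the absorptive colonocyte list a median of 28.0.

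Stem and crypt genes split into a bright and a dark set. Of 25 measured, 16 lay above the median, which is 64.0% against 63.5% of all genes, but 8 (32.0%) lay in the top 10%. SOX9, a factor of the crypt base, read 5658, and the ubiquitin ligases RNF43 and ZNRF3, which remove Wnt receptors, read 3105 and 3058. ASCL2, the stem cell factor, was modest at 1459, and LGR5, the R-spondin receptor that marks crypt stem cells, read 569 and 60.5. OLFM4, which marks stem cells in normal human crypts, gave 0.768, among the lowest signals of all list members. PROM1 (CD133) and ALDH1A1, both used as tumour stem cell markers, read 24.0 and 2.86, while CD44 read 1228 on the brightest of its 13 probe sets.

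Of 18 mesenchymal genes, 12 lay above the median (66.7%, near the background of 63.5%) and 2 in the top 10% (11.1%, against 18.5%). As a list they thus did not stand out from all genes. S100A4, a calcium-binding protein of motile cells, was among the brightest genes at 33001 and vimentin (VIM), the mesenchymal intermediate filament, read 10812 on 1 probe set and 12.0 on the other. The repressor of E-cadherin ZEB1 was modest at 672 and SNAI2 at 154, whereas ZEB2 (37.5), TWIST1 (14.8), N-cadherin (CDH2, 29.1) and SPARC (14.4) lay below the median. High VIM and S100A4 were thus read beside high EPCAM, CDH1 and DSP.

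Lists for cell types that a pure culture should lack had smaller shares above the median than all genes had: 6 of 16 fibroblast and smooth muscle genes, 3 of 11 endothelial, 7 of 19 leukocyte, 3 of 8 erythroid and platelet, 8 of 20 hepatocyte, 4 of 14 stomach and pancreas, and 5 of 17 neural and muscle genes. Shares ran from 27.3% to 40%, against 63.5% of all genes. Of the defining members, many read at or below the median, such as COL1A2 5.89, COL3A1 13.4, VWF 23.2, CDH5 13.3, PTPRC (CD45) 19.1, CD3D 24.4, HP 11.5 and MYOD1 11.2. Others were modest, such as albumin (ALB) at 351 on the brightest of 4 probe sets and 4.26 on the dimmest, CD79A at 281, CD8A at 151 and CD14 at 73.5. Single members stood higher. LUM, a matrix proteoglycan of fibroblasts, read 1519, CORO1A, an actin regulator of leukocytes, 2028, and TUBB3, a neuronal tubulin often expressed in tumours, 14858 and 6755. Of 15 squamous genes 8 lay above the median, and SFN, KRT5 and KRT10 were the 3 in the top 10%.

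Wnt target genes were read strongly. Of 33 targets and secreted antagonists, 26 lay above the median (78.8%) and 12 in the top 10% (36.4%, against 18.5%). MYC, the growth regulator under TCF control in colon cells, read 24338, SOX4 15716 and cyclin D1 (CCND1) 4513. Feedback inhibitors of the pathway were high or modest: AXIN2 read 5369, the Wnt inhibitor APCDD1 6080.1, RNF43 and ZNRF3 as above, NKD1 1109 and the Wnt deacylase NOTUM 685. The secreted antagonists DKK4 and DKK1, which block the co-receptor LRP6, read 7523 and 2709.7. SP5 (2399), BMP4 (5449) and the hormone FGF19 (3792) were high too.

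The antagonists that bind Wnt itself gave weak signals. SFRP1, SFRP2, SFRP4, FRZB and WIF1 lay at or below the median at 32.5, 18.4, 40.7, 25.7 and 15.1, and SFRP5 was modest at 96.2. MMP7, a protease that colorectal adenomas often express under Wnt control, read 28.4.

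Of 33 genes of the destruction complex and of transduction, 31 lay above the median (93.9%) and 9 in the top 10% (27.3%, against 18.5% of all genes). Above the 95th percentile of the other-tissue families (87.5) lay 28 of the 33. Beta-catenin (CTNNB1) read 14593 and the kinase CSNK1A1 11204. APC itself was modest at 925 on the brightest of 5 probe sets and 34.8 on the dimmest, AXIN1 at 391 and GSK3B at 1562. Of the nuclear partners, TCF7L2 read 5541, LEF1, a factor little expressed in normal colon, 3478, and TCF7L1 83.4. The co-receptor LRP6 read 2631, and among frizzled receptors FZD10 was brightest at 1342, followed by FZD3 at 674, while FZD7 lay below the median at 48.0.

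The Hippo pathway, in which the study intervened, had 28 of 35 genes above the median (80.0%, against 70.4% of protein-coding genes). In the top 10% lay 9 of them (25.7%, against 22.0%). LATS2 was measured by 4 probe sets, which read 8.75, 10.7, 206 and 385 in this array without added LATS2. The brighter pair of probe sets lay in the modest band and the dimmer pair at or below the median. LATS1, its paralogue, read 405 and, on its other 3 probe sets, 4.28, 17.6 and 29.9. The adaptor MOB1A read 4290.4, the upstream kinase STK4 (MST1) 2306, SAV1 958 and NF2 (merlin) 1294.

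On the output side, YAP1 was high on its brightest probe set (6068) and at 1541 on its dimmest, and TEAD1 and TEAD4 read 6097 and 4666. WWTR1 was modest at 359.8. The genes most used as readouts of YAP were dark or near the median: CCN2 (CTGF) read 28.6, ANKRD1 9.15 and CCN1 (CYR61) 66.8 and 58.1. AJUBA and PTPN14 read 2049.8 and 1457.

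**Figure D3:**
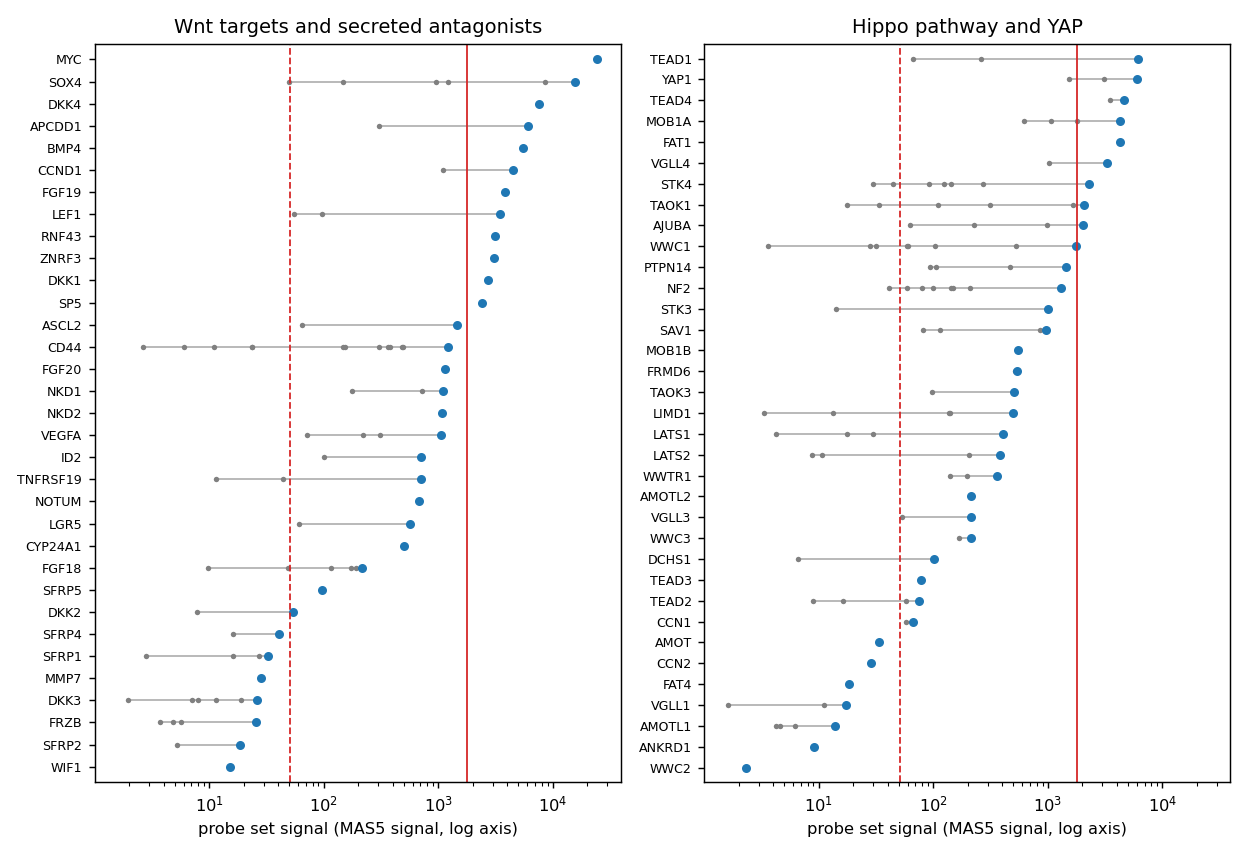
Every probe set of the 33 Wnt target and antagonist genes (left) and the 35 Hippo pathway genes (right) on the empty-vector array, log axis; the brightest probe set of a gene is blue, the others grey, joined by a line. The dashed red line is the array median (51.1) and the solid line the 90th percentile (1791). MYC, at 24338, is the brightest on the left, and the 4 probe sets of LATS2 spread over both sides of the median.

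Receptor tyrosine kinases were mostly modest. Of 36, 24 lay above the median (66.7%, near the background of 63.5%) and 2 in the top 10%. These were MET, the receptor of hepatocyte growth factor, at 5907, and the ephrin receptor EPHA2 at 3393. ERBB3 read 1395, ERBB2 773 and EGFR 408 on the brightest of 9 probe sets. KIT, PDGFRB, KDR and FLT3, receptors of other lineages, read 12.0, 21.8, 26.9 and 4.94. Of 28 growth factor ligands, 23 lay above the median (82.1%) and 3 in the top 10% (10.7%, against 18.5% of all genes), namely BMP4, FGF19 and PDGFA (3173). The EGFR ligands HBEGF and TGFA were modest at 1089 and 1004, and EREG read 314.

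Below the receptors, the RAS and ERK list had 29 of 31 genes above the median and 16 in the top 10% (51.6%). MAP2K1 (MEK1) read 4359, HRAS 2254 and the phosphatase PTPN11, which links receptors to RAS, 8796. Genes that ERK activity turns on were bright: PHLDA1 read 11421, IER3 11152, EGR1 3258, the ERK phosphatases DUSP4, DUSP5 and DUSP6 2562, 2329 and 2524, and the feedback inhibitors SPRY2 and SPRED2 2492 and 2479. The ETS factors ETV4 and ETV5 read 1210.3 and 1948. NF1, the RAS-inactivating protein, lay at or below the median at 17.3 with probe sets of several symbols left out. With those probe sets kept, 30 of the 31 genes of the list lay above the median, in place of 29. Which gene moved is not given here.

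Of 26 genes of the TGF-beta and BMP pathway, 23 lay above the median (88.5%, against 63.5% of all genes) and 8 in the top 10% (30.8%, against 18.5%). BAMBI, a decoy receptor and Wnt target, was the brightest at 11867. The receptors TGFBR1 and TGFBR2 read 4644 and 2110.0, SMAD2 1852 and the inhibitory SMAD7 1569. SMAD4, the shared partner of all receptor-regulated SMADs, lay below the median on each of its 5 probe sets, at 7.0, 13.2, 21.6, 24.3 and 32.3. It was 1 of 3 members there, with the secreted BMP antagonists GREM1 (20.8) and NOG (1.19). ID1, a BMP target, read 2819.6.

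Genes of the dividing cell were read throughout. All 26 measured mitosis genes lay above the median and 22 in the top 10% (84.6%), with a median of 3566. PTTG1 (securin) read 17975, CDK1 15769.6, cyclin B1 (CCNB1) 9999.8 and the proliferation marker MKI67 3300.4. All 32 measured genes of G1/S and DNA replication lay above the median and 23 in the top 10%. Cyclin D2 (CCND2) was the brightest at 21573, and the nucleotide-synthesis enzymes RRM2 and TYMS and the replication clamp PCNA read 18811, 17069 and 13008. Cyclin E1 (CCNE1) and E2F1 were modest at 570.1 and 391.

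All 6 measured CDK inhibitors lay above the median. CDKN2A was high at 4101 on its brightest probe set and 5.15 on its dimmest, CDKN1B (p27) read 2812 and CDKN1A (p21) was modest at 418. In the MYC network, 11 of 12 genes lay above the median (91.7%, against 63.5% of all genes), with MAX, the obligate partner, at 6104 and MYCN at 86.8. Of 7 measured mismatch repair genes all lay above the median, among them MSH6 at 5938 and MSH3 at 430.1. Of 23 DNA damage response targets 21 did, with 4 in the top 10% (17.4%, near the background of 18.5%). MDM2 read 1406, BAX 1533 and GADD45A 4272.

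Of 27 apoptosis regulators, 24 lay above the median (88.9%, against 63.5% of all genes) and 12 in the top 10% (44.4%, against 18.5%). Cytochrome c (CYCS) read 32309.9, the survival proteins MCL1 and BCL2L1 6430.3 and 1829, and survivin (BIRC5), which also works in mitosis, 3598. The TRAIL receptors TNFRSF10A and TNFRSF10B were high at 3146 and 2522. BCL2 was modest at 179.6, and the BH3-only protein BMF lay at 14.9.

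Glycolysis was 1 of the brightest lists, with 20 of 21 genes above the median, 16 in the top 10% and 9 in the top 1%. ENO1 read 33335, LDHA 32763, GAPDH 32945 and the glucose transporter SLC2A1 11275. PKLR, the pyruvate kinase of liver and red cells, was the member below the median at 8.69, while PKM, the form of other tissues, read 10293. Respiration genes were bright beside it: 77 of 86 subunits of the respiratory chain and ATP synthase lay in the top 10%, with a median of 8478. All 17 measured genes of sterol and fatty acid synthesis lay above the median and 9 in the top 10%, led by the desaturase SCD at 12907, ACLY at 10996 and FDPS at 10147.

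Of 35 drug transporters and metabolic enzymes, 28 lay above the median (80.0%, against 63.5% of all genes) and 12 in the top 10% (34.3%, against 18.5%). The glutathione transferase GSTP1 read 17634 and the amino acid transporter SLC7A5 13623. ABCB1, the P-glycoprotein efflux pump, was high at 2822 on 1 probe set and 246 on the other, and ABCG2 read 53.9. TYMS and TOP1, the targets of fluoropyrimidines and of irinotecan, read 17069 and 6268. DPYD, which degrades fluoropyrimidines, was modest at 105. UGT1A1, which conjugates the active form of irinotecan, lay at 16.3 by probe sets with 1 symbol. With probe sets of several symbols kept, 29 of the 35 genes of the list lay above the median. Which gene moved is not given here. Of 48 cytochrome P450 genes, 19 lay above the median and 0 in the top 10%.

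Class I antigen presentation was read far more strongly than class II. Of 17 class I genes, 16 lay above the median and 9 in the top 10%, with beta-2-microglobulin (B2M) at 16316 and HLA-C and HLA-B at 7747 and 5158. HLA genes are so alike in sequence that their probes may read one another. The inducible parts of the same list were only modest, TAP1 at 307, PSMB8 at 166 and PSMB9 at 147, and the transactivator NLRC5 lay at 9.23. Of 10 class II genes, 4 lay above the median and 0 in the top 10%, with HLA-DRA at 6.02 and the transactivator CIITA at 47.6.

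Of 24 interferon-stimulated genes, 16 lay above the median (66.7%, near the background) and 0 in the top 10%. ISG15 was the brightest at 998, and IFIT1, IFI27 and IFI44L read 32.5, 18.2 and 3.39. Of 31 cytokines and chemokines, 17 lay above the median (54.8%) and 3 in the top 10% (9.68%): MIF at 20129, and the chemokines CXCL1 and CCL20 at 3458 and 2915. The neutrophil attractant CXCL8 was modest at 1014. CXCL9, CXCL10 and CXCL11, which attract T cells under interferon, read 15.1, 26.9 and 17.2, and IL6 read 31.5.

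Of 32 genes of proteases, matrix and integrins, 24 lay above the median (75%, against 63.5% of all and 70.4% of protein-coding genes). In the top 10% lay 8 (25%, against 18.5% and 22.0%). Integrin beta 1 (ITGB1) read 14839.7 on the brightest of 7 probe sets and ITGA6 5221. The basement membrane collagen COL4A1 and tenascin C (TNC) were high at 2774 and 3636. The secreted collagenases were dark, MMP1 at 6.96 and MMP13 at 6.72, and MMP9 read 157.

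Of 39 nuclear receptors, 25 lay above the median (64.1%, near the background) and 1 in the top 10%, the orphan receptor NR2F6 at 3476. PPARG, high in normal colon, read 934 and the vitamin D receptor VDR 763. ESR1 and PGR read 20.6 and 18.1. Of 28 chromatin regulators, 26 lay above the median (92.9%) and 11 in the top 10% (39.3%, against 18.5% of all genes). DNMT1, the maintenance methyltransferase, read 6075 and the Polycomb subunits EED, SUZ12 and EZH2 5729, 5106 and 2769.6. LIN28A and LIN28B lay below the median at 18.8 and 15.4.

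Of 19 cancer-testis genes, 7 lay above the median (36.8%) and 0 in the top 10%, and CTCFL, the testis paralogue of the insulator protein CTCF, was the brightest at 858. Of 8 long noncoding RNAs on the list, 5 lay above the median (62.5%, against 26.1% of all 2658 long noncoding RNA genes). MALAT1 read 839 on the brightest of 12 probe sets and HOTAIR 21.8. Of the homeobox clusters, 8 of 10 HOXB genes, 8 of 9 HOXC genes and 4 of 8 HOXD genes lay above the median, and 3, 0 and 0 of them in the top 10%. HOXB7, HOXB8 and HOXB6 read 4957, 3479.5 and 2084, HOXC6 read 1057 and HOXD13, a factor of the hindgut end, 527.

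Whole families showed how evenly a function was read. In the top 10% lay 19 of 19 heterogeneous nuclear ribonucleoproteins, 70 of 75 mitochondrial ribosomal proteins, 30 of 35 proteasome subunits, 44 of 58 translation factors, 9 of 10 SR splicing factors and 7 of 9 TRiC chaperonin subunits. All 7 measured mitochondrially encoded genes lay above the median and 5 in the top 10%. Of 69 heat shock proteins, 57 lay above the median and 31 in the top 10%, led by HSPD1 at 37496 and HSP90AA1 at 36474, and of 15 tubulins 13 did and 8 were in the top 10%.

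Receptor and channel families had small shares above the median. Zinc finger and transporter families had shares near the 63.5% of all genes and below the 70.4% of protein-coding genes. Of 60 receptors named GPR, 22 lay above the median (36.7%) and 1 in the top 10%, GPR160 at 1823. Of 86 potassium channels, 34 lay above the median (39.5%) and 1 in the top 10%, KCNS3 at 1932. Of 452 ZNF zinc finger genes, 308 lay above the median (68.1%) but 18 in the top 10% (3.98%, against 18.5% of all genes). Of 347 solute carriers, 237 lay above the median (68.3%) and 48 in the top 10% (13.8%). They were led by the mitochondrial carriers SLC25A3 and SLC25A5 at 22877 and 22646. Of 41 ABC transporters, 25 lay above the median (61.0%) and 8 in the top 10% (19.5%).

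The S100 proteins were split. Of 21, 11 lay above the median and 9 in the top 10%, so nearly every member above the median was high. S100A4, S100A6, S100A10 and S100A11 read 33001, 29979.7, 23773 and 22072. Of 12 annexins, their binding partners among them, 9 lay above the median and 7 in the top 10%, led by ANXA2 at 21908. Of 25 integrins 17 lay above the median (68%, against 63.5% of all and 70.4% of protein-coding genes). In the top 10% lay 4 of the integrins (16%, against 18.5% and 22.0%). Of 9 metallothioneins 8 lay above the median (88.9%, against 63.5% of all genes), led by MT2A at 6017.

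**Figure D4:**
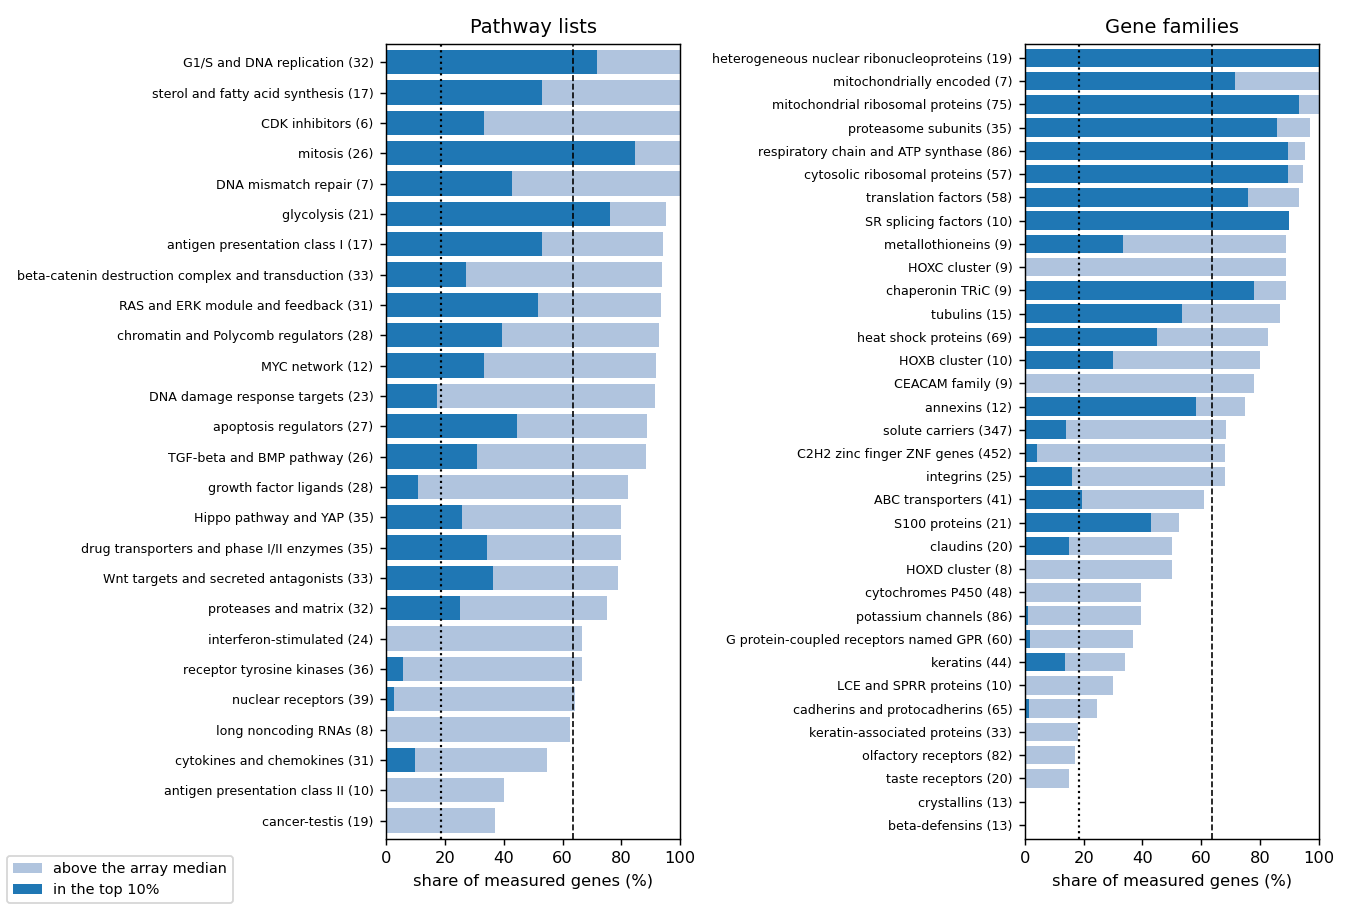
Share of the measured genes of each pathway list (left) and gene family with at least 5 genes (right) that lay above the array median (light bars) and in the top 10% of probe sets (dark bars), with the number measured in brackets. The dashed line is the share of all genes above the median (63.5%) and the dotted line their share in the top 10% (18.5%). Mitosis (84.6%) and glycolysis (76.2%) have the largest top 10% shares among pathway lists, and crystallins and beta-defensins have no gene above the median.

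Genes next to the 2 limits show how fine the calls are. The list genes just below the array median were HRK, NR1I3 and NR5A1 at 48.9, 49.5 and 50.9, and those just above it were GSTA1, HPX and CA1 at 51.6, 51.8 and 52.7. At the 90th percentile, PMS1 lay just below at 1758 and HLA-E just above at 1809.6. In all, 724 of the 19775 genes lay within 10% of the median. Of 932 genes on the lists, counted once each, 651 (69.8%) lay above the median and 224 (24.0%) in the top 10%.

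The probe sets of a gene often disagreed on its band. Of the 2486 genes with several probe sets whose brightest lay in the top 10%, 881 (35.4%) also had 1 at or below the median, and 54 of these were list genes. The widest gap was in C11orf58, whose 5 probe sets ran from 0.176 to 11469.6, followed by the glutathione transferase MGST1 (0.587 to 11911) and the histone variant MACROH2A1 (0.998 to 16859). In 312 genes every probe set lay in the top 10%, and there the highest was a median of 1.77 times the lowest. ACTB, LDHB, HSP90AA1 and MCM7 are among the genes named here with all probe sets in that band.

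The promoters of dark and bright genes held different numbers of CG dinucleotides, the sites of DNA methylation, which are dense in the CpG islands of widely used genes. A RefSeq promoter of 300 bases, 250 before the start and 50 from it, was found for 15360 of the 19775 genes. The median count of CG was 9 in genes at or below the median, 25 in modest genes, 27 in the top 10% below the top 1% and 26 in the top 1%. Among protein-coding genes alone, the medians were 10, 26, 28 and 26. Over all 15360 genes it was 22. The 30 absorptive colonocyte genes with a promoter had a median of 5 and the 14 goblet genes 6. The 26 genes of G1/S and replication had 29.5 and the 22 genes of the RAS and ERK list 32. Lists with bright members did not all have high counts. The median was 24 in 21 mitosis genes and in 17 adhesion and junction genes. It was 19 in 18 Wnt targets and antagonists and 15 in 6 simple epithelial keratin and cytoskeleton genes.

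The 120 bases before the start are shown for 3 bright Wnt list genes, chosen after their values were seen, and 3 of the dimmest absorptive colonocyte genes, to set their CG dinucleotides (in capitals) side by side (RefSeq, GRCh38.p14). Genes without an entry and genes on some chromosomes were left out before both choices. Wnt list genes brighter than LEF1 were thus not shown, among them MYC, the brightest of the list, DKK4, APCDD1, AXIN2 and CCND1. MYC, DKK4 and APCDD1 were also brighter than BMP4. The promoter of APCDD1 held 33 CG.
SOX4 (chr6:21593631-21593750, + strand): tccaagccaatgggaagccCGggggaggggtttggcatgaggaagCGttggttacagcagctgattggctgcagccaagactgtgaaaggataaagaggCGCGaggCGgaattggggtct
BMP4 (chr14:53955051-53955170, - strand): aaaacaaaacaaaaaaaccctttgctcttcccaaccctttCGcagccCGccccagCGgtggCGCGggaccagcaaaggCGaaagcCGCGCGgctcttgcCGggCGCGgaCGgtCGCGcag
LEF1 (chr4:108166302-108166421, - strand): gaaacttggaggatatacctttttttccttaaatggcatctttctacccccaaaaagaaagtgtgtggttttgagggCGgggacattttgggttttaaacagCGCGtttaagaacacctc
FABP2 (chr4:119322139-119322258, - strand): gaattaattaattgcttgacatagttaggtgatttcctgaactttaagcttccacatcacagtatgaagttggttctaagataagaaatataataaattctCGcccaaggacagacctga
SI (chr3:165078497-165078616, - strand): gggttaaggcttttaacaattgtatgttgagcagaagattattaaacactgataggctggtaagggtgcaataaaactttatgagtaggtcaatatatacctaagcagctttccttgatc
CLCA4 (chr1:86546958-86547077, + strand): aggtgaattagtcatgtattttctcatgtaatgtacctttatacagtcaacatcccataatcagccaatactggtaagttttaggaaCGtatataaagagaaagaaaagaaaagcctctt

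The promoter of BMP4 held 32 CG in its 300 bases, those of SOX4 and LEF1 8 and 9, and those of FABP2, SI (sucrase-isomaltase) and CLCA4 3, 0 and 2. BMP4 read 5449, SOX4 15716 and LEF1 3478, against 1.38 for FABP2, 1.73 for SI and 1.76 for CLCA4. A low count was thus also found at bright genes such as SOX4, LEF1 and S100A4, which had 8. The motif TATAAA, searched on the transcribed strand between 45 and 16 bases before the start, was found in 5.08% of genes at or below the median, 2.17% of modest genes, 1.19% of the top 10% below the top 1% and 5.81% of the top 1%, and in 2.64% of all promoters. Anywhere in the 300 bases and on either strand it was found in 14.3%, 6.26%, 4.90% and 10.1% of the 4 bands, and in 12.0% of all promoters. In the 140 genes of other-tissue families, which had a median of 2 CG, it was found near the start in 22.9% and anywhere on either strand in 45.7%.

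**Figure D5:**
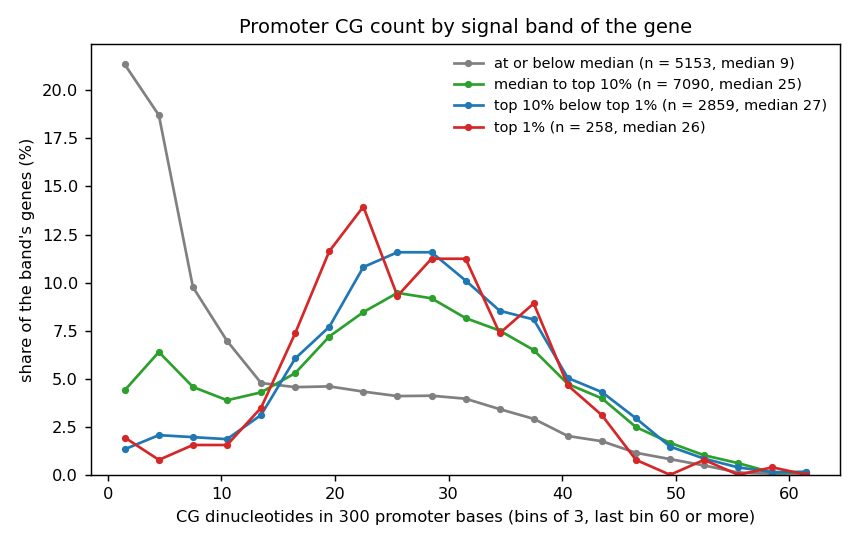
Number of CG dinucleotides in 300 promoter bases (x axis, bins of 3) and share of genes (y axis, %) for the 4 signal bands of the gene on the empty-vector array. Genes at or below the array median (median count 9) pile up at low counts, and the 3 brighter bands (medians 25, 27 and 26) peak above 20.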

How the data were processed

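RNA of 1 sample was hybridised to 1 Affymetrix array of 54675 probe sets. The deposited values are MAS5 intensities on a linear scale, per the submitters' processing notes, which name no version or settings. The mean of all probe sets without the lowest and highest 2% was 500.1, found from the values. Detection calls were not analysed here. Genes were named from the platform's probe table, updated through gene identifiers to RefSeq symbols (assembly GRCh38.p14): 41037 of the 41091 probe sets with 1 symbol matched, 1801 probe sets with several symbols were left out and 11721 were not listed. Each gene took its brightest probe set.

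Signals were ranked and counted against the array's median and 90th percentile with Python 3.11.15, pandas 2.3.3 and NumPy 2.4.6, with no test, since there is 1 array and the number of arrays limits the precision. Counting was checked on simulated tables. The 45 gene lists, the families (protein-coding members, a restriction chosen after the values were seen) and the genes described were chosen with earlier results of these data known. Named are the 30 brightest genes, the 30 brightest outside common families, list members and the brightest family members, LATS2 with every probe set, genes whose probe sets fall in the top 10% and at or below the median, and others chosen after their values were seen. List genes without a probe set of 1 symbol were not analysed here. The alternatives were the median probe set, probe sets without a letter suffix, 2 stricter limits, probe sets with several symbols kept, and a shorter promoter window.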

Additional observations from a re-analysis of the deposited data

How the results depend on the processing

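No paired analysis was possible because there is 1 array and no test. Of 45 gene lists, 27 had a larger share above the limit than all genes had, and 38 stayed on their side of that background under each of 5 alternatives. The lists that changed side under at least 1 of them were mesenchymal transition, intestinal stem and crypt, receptor tyrosine kinases, growth factor ligands, interferon-stimulated genes, nuclear receptors and long noncoding RNAs. Among the 27, the mesenchymal, stem and crypt, receptor tyrosine kinase, interferon-stimulated and nuclear receptor lists had shares of 64.0% to 66.7%. These lie below the 70.4% of protein-coding genes.

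A limit at the 75th percentile of the array (356.7) left 7919 genes above it, 40.1% of all, and 740 family members in place of 1197. The numbers of list members above that limit were 6 for mesenchymal transition, 6 for absorptive colonocytes, 3 for goblet cells, 2 for mucins and trefoil factors, 1 each for enteroendocrine, Paneth, fibroblast and leukocyte genes, 2 for tuft, 3 for squamous and 2 for neural and muscle genes. They were 0 for endothelial, erythroid and platelet, hepatocyte, and stomach and pancreas genes. Of the pathway lists, interferon-stimulated genes went from 16 to 5, growth factor ligands from 23 to 10, receptor tyrosine kinases from 24 to 13, nuclear receptors from 25 to 13, drug transporters and enzymes from 28 to 17, cytokines from 17 to 9, cancer-testis genes from 7 to 1, class II genes from 4 to 1 and long noncoding RNAs from 5 to 1. A limit at the 95th percentile of other-tissue families (87.5) gave 4 for mucins, 3 for enteroendocrine, 3 for fibroblast, 1 for endothelial, 4 for leukocyte, 3 for hepatocyte and 1 for stomach and pancreas genes.

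The median probe set in place of the brightest placed 2282 genes and 155 list memberships in the top 10%, in place of 3653 and 238. Above the array median it left 7 absorptive colonocyte genes, 4 mucins, 2 fibroblast, 1 endothelial, 3 hepatocyte, 2 stomach and pancreas, and 3 neural and muscle genes. Probe sets without a letter suffix alone gave 2089 genes and 127 list memberships in the top 10%, from fewer genes measured. Above the array median they left 7 mesenchymal, 5 goblet, 5 mucin, 2 Paneth, 3 fibroblast, 1 endothelial, 1 erythroid and platelet, and 3 neural and muscle genes. With probe sets of several symbols kept, 5 erythroid and platelet genes lay above it. The median CG count of genes at or below the median was 10 under each of the first 2 of these settings, and in the 250 bases before the start alone it was 7, against 22 in the top 10%. The causes of these shifts were not tested.

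With 1 array, no value has an error between cultures, and differences of band rest on probe sets whose affinity is unknown.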

Other observations

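Some strong signals belong to no named gene. Of the 11721 probe sets that the platform's table does not list, 3056 (26.1%) lay above the array median, 278 in the top 10% and 32 in the top 1% of probe sets. Of the 1801 probe sets with several gene symbols, 1122 (62.3%) lay above the median, 346 in the top 10% and 113 in the top 1%. Neither class entered the gene counts.

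Long noncoding RNA genes and transcribed pseudogenes were rarely bright. Of 2658 long noncoding RNA genes, 19 lay in the top 10% (0.715%), and of 424 transcribed pseudogenes 4 did (0.943%), against 22.0% of protein-coding genes.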
